A study of Mus musculus with 6 samples.

Results

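The Cyp4 genes described here encode cytochrome P450 enzymes that hydroxylate fatty acids, and they were followed in mouse liver after oral treatment with a plant extract. The members are 10 genes chosen by name, of 30889 in the deposited table: Cyp4a10, Cyp4a12a, Cyp4a12b, Cyp4a14, Cyp4a31, Cyp4a32, Cyp4f13, Cyp4f14, Cyp4f15 and Cyp4v3. The list was drawn up with the values of the comparison of extract with control in view, so their values are given as a description, with no p-value, and edgeR calls among them are only counted. The extract group (labelled ST) received a water extract of Emilia sonchifolia, a herb of the daisy family, and the control group (labelled CK) received phosphate buffered saline. Both were treated by mouth for 14 days, and each is represented by 3 liver libraries made from poly(A) RNA. Strain, sex, age and dose are not given in the labels. Nor is it stated whether the libraries come from different animals, so the p-values below reflect only how far these 6 libraries vary, and part of that may be technical.

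Cyp4 enzymes sit in the membrane of the endoplasmic reticulum and add oxygen to the last carbon of a fatty acid, called omega-hydroxylation. They take electrons from cytochrome P450 reductase, and their products pass through alcohol and aldehyde dehydrogenases to dicarboxylic acids, which peroxisomes shorten. Rodent Cyp4a genes are classic targets of the fatty acid receptor PPARalpha in liver, and several Cyp4 enzymes act on arachidonic acid and its derivatives.

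The 6 libraries held 51219533 to 61432016 estimated counts, with 22649 to 24178 genes above 0. Hepatocyte markers summed to 41267 to 41638 FPKM (fragments per kilobase and library size) in extract libraries, against 40082 to 49196 FPKM in control libraries, and Alb was the highest of them, which fits the label of liver. By the edgeR calls described below, 5 of the 9 markers tested were higher with the extract and 2 lower. Of all genes tested, 14.2% were higher and 12.8% lower. The third control library stood apart from the other controls for several members, and values without it are given beside the results that it moves most.

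All 10 members had the same chromosome, start and end in the table as in GENCODE release M21 on GRCm38. The 6 Cyp4a genes lie on chromosome 4 from 115299046 to 115621602, and the 3 Cyp4f genes on chromosome 17 from 32685627 to 32947402. Cyp4v3 is on chromosome 8 (45304944 to 45333216, minus strand). Some of these genes are near-identical copies. The coding sequences of Cyp4a12a and Cyp4a12b were 98.5% identical, and Cyp4a10 was 97.2% identical to Cyp4a32 and 96.6% to Cyp4a31. Cyp4a14 was no more than 75.8% identical to any other member. The pathway terms printed in the table place 8 of the members (the Cyp4a genes, Cyp4f13 and Cyp4f14) in arachidonic acid metabolism, and the 6 Cyp4a genes also in fatty acid degradation, retinol metabolism and PPAR signaling.

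The following stretches show this kinship at the site that defines the enzyme family. Each is 90 coding bases, made of the 30-base signature around the cysteine codon that anchors the heme iron and 30 bases on either side, read 5′ to 3′ from GENCODE transcripts on GRCm38. Capitals mark bases that differ from Cyp4a10, and each stretch is joined across a splice junction. Cyp4a31 and Cyp4a32 have the Cyp4a10 stretch with 0 differences, and Cyp4a12b has that of Cyp4a12a, with the same 6 differences. Cyp4a14 has 16.
Cyp4a10: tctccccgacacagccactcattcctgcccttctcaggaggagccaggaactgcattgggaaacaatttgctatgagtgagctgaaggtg
Cyp4a12a: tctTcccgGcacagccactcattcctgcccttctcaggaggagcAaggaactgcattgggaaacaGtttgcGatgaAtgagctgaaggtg
Cyp4a14: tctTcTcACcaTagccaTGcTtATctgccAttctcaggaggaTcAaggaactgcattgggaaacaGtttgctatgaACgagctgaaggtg
The first lies at chr4:115529472-115532573 on the plus strand, the second at chr4:115328956-115331876 on the plus strand and the Cyp4a14 stretch at chr4:115487269-115489835 on the minus strand. A read inside this stretch could not tell Cyp4a10, Cyp4a31 and Cyp4a32 apart, nor Cyp4a12a from Cyp4a12b, whereas Cyp4a14 is told apart by its differences.

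No 2 of the Cyp4f genes share this stretch unchanged, and capitals here mark bases that are not those of Cyp4f14. Cyp4f13 had 12 differences and Cyp4f15 had 11.
Cyp4f14: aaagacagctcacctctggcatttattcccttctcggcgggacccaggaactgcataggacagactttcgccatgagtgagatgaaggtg
Cyp4f13: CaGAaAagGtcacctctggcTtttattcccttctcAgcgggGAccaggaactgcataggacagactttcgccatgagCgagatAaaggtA
Cyp4f15: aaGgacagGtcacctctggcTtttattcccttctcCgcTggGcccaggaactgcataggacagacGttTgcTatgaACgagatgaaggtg
These lie on chromosome 17 at chr17:32905636-32906095 (minus strand), chr17:32924912-32925370 (minus strand) and chr17:32702368-32702831 (plus strand), in the order of the lines.

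Over whole transcripts, 35.8% of all 100-base stretches of Cyp4a12a occurred unchanged in an annotated transcript of another gene, Cyp4a12b in each case, and 36.2% of those of Cyp4a12b in Cyp4a12a. The share was 12.7% for Cyp4a10, 8.22% for Cyp4a31 and 20.1% for Cyp4a32. It was 0 for Cyp4a14, Cyp4f13, Cyp4f14 and Cyp4f15, and 5.77% for Cyp4v3, all with the gene model Gm45753. How the authors assigned reads that match several copies is unknown here, so the split within the Cyp4a12 pair and within Cyp4a10, Cyp4a31 and Cyp4a32 is uncertain. The annotated transcript of Cyp4a32 is 1530 bases, of which 1527 are coding, so its level per length leaves out any untranslated sequence.

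**Figure D1:**
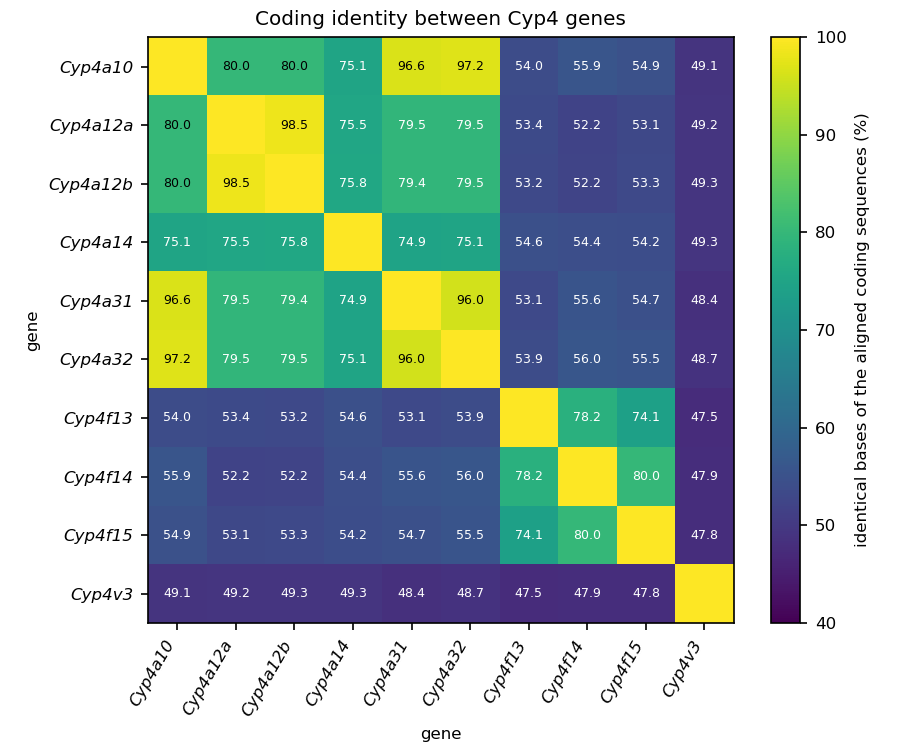
Heat map of coding sequence identity (percent of aligned bases that are identical) between the 10 genes, which are on both axes. The Cyp4a12 pair stands at 98.5%, Cyp4a10, Cyp4a31 and Cyp4a32 at 96.0 to 97.2%, and Cyp4v3 at 47.5 to 49.3% with every other gene.

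Among the 10 members, the extract and control livers differed most in Cyp4a14. This gene was 7.90-fold lower with the extract, while the closely placed Cyp4a10 was 1.41-fold higher and Cyp4f14, a leukotriene hydroxylase, was 1.55-fold higher. The other 7 genes lay within 0.30 of no change on the log2 scale. By the edgeR quasi-likelihood test across the 18071 genes tested, 3 of the 10 members were called higher and 2 lower, where 26.9% of all genes tested were called, 14.2% higher and 12.8% lower. All 10 passed the filter on low counts. The FPKM ranges of the groups did not overlap for 6 members, 3 higher and 3 lower with the extract, and for 44.6% of all genes tested, 17.7% higher and 26.9% lower. Since the members were chosen on this contrast, nothing is read from these counts.

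**Figure D2:**
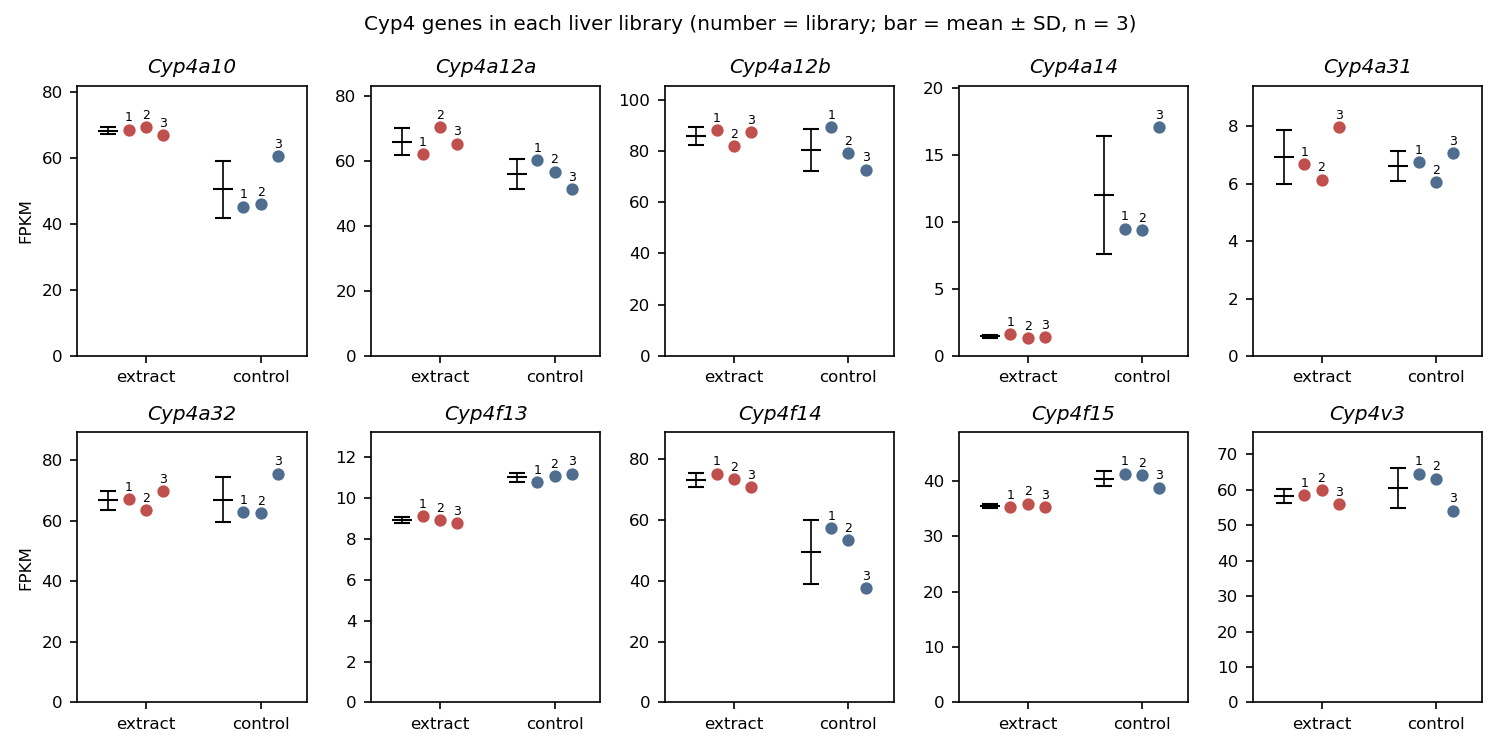
FPKM (vertical axis, from 0) of each of the 10 genes in the 3 extract libraries (red) and the 3 control libraries (blue), numbered by library, with the mean ± SD as a bar. Cyp4a14 is at 1.33 to 1.60 FPKM in extract libraries and at 9.39 to 17.1 FPKM in control libraries.

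Cyp4a14 (ENSMUSG00000028715, chromosome 4, 115486200 to 115496142, minus strand) encodes an inducible fatty acid hydroxylase of the PPARalpha response. It had 1.60, 1.33 and 1.42 FPKM in extract libraries 1 to 3, against 9.49, 9.39 and 17.1 FPKM in control libraries 1 to 3. Every extract library was below every control library, and control 3 was well above the other controls. The means were 1.45 ± 0.141 FPKM with the extract and 12.0 ± 4.40 FPKM in control (SD, n = 3 each). They rest on 235 to 269 estimated counts per extract library and 1510 to 2815 per control library. The log2 fold change, extract over control, was -2.98 ± 0.25 (SE), and -2.63 without control 3. Of the 18071 genes tested, 80 (0.443%) had a log2 fold change as low or lower. As the members were chosen with this contrast in view, that share only describes the gene's place and nothing is inferred from it.

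Cyp4a10 (ENSMUSG00000066072, chromosome 4, 115518264 to 115533649, plus strand), another PPARalpha-inducible hydroxylase, lies 22.1 kb from Cyp4a14. It had 68.5, 69.3 and 67.0 FPKM in extract libraries, against 45.2, 45.9 and 60.5 FPKM in control libraries. The groups did not overlap, but control 3 lay nearer to the extract libraries than to the other controls. The log2 fold change was 0.49 ± 0.11 (SE), and 0.65 without control 3. Control 3 was thus the highest control for both Cyp4a10 and Cyp4a14, although the difference between extract and control had opposite signs in these neighbours. The ratio of Cyp4a10 to Cyp4a14 FPKM was 42.8, 52.3 and 47.3 in extract libraries, against 4.76, 4.89 and 3.55 in control libraries.

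Cyp4a31 and Cyp4a32 follow Cyp4a10 on the same strand and are its near-identical copies. Cyp4a31 had 6.67, 6.14 and 7.97 FPKM in extract libraries, against 6.75, 6.06 and 7.08 FPKM in control libraries (log2 fold change 0.13 ± 0.11, SE). Cyp4a32 had 67.0, 63.5 and 69.8 FPKM in extract libraries, against 62.7, 62.3 and 75.5 FPKM in control libraries (log2 fold change 0.06 ± 0.09, SE). In both genes the groups overlapped, and neither difference was larger than the spread between libraries. For Cyp4a32 the overlap came from control 3 alone, and without it the log2 fold change was 0.16. With the counts of Cyp4a10, Cyp4a31 and Cyp4a32 summed, the log2 fold change was 0.29 ± 0.09 (SE), and 0.41 without control 3. The sum is free of the split between copies only if each shared read was counted once, which is not stated. The summed counts, scaled to library size (CPM), were 321, 310 and 331 in extract libraries, against 249, 249 and 319 in control libraries, so the sum overlapped between the groups only through control 3.

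Cyp4a12a and Cyp4a12b are the Cyp4a genes known for higher levels in male mouse liver and kidney, and Cyp4a12a is the main mouse enzyme that omega-hydroxylates arachidonic acid. Cyp4a12a (chromosome 4, 115299046 to 115332815) had 62.1, 70.4 and 65.4 FPKM in extract libraries, against 60.3, 56.7 and 51.3 FPKM in control libraries. Its groups did not overlap, though extract 1 and control 1 were close, and the log2 fold change was 0.29 ± 0.07 (SE). Cyp4a12b (chromosome 4, 115411624 to 115439034) had 88.2, 81.8 and 87.2 FPKM in extract libraries, against 89.3, 79.1 and 72.7 FPKM in control libraries, with a log2 fold change of 0.16 ± 0.07 (SE), and 0.10 without control 3. Its highest library was a control, and the groups overlapped. For the summed counts of the pair, which share the most sequence of all members, the log2 fold change was 0.22 ± 0.06 (SE). The summed counts were 439, 438 and 453 CPM in extract libraries, against 429, 392 and 364 CPM in control libraries, with no overlap.

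**Figure D3:**
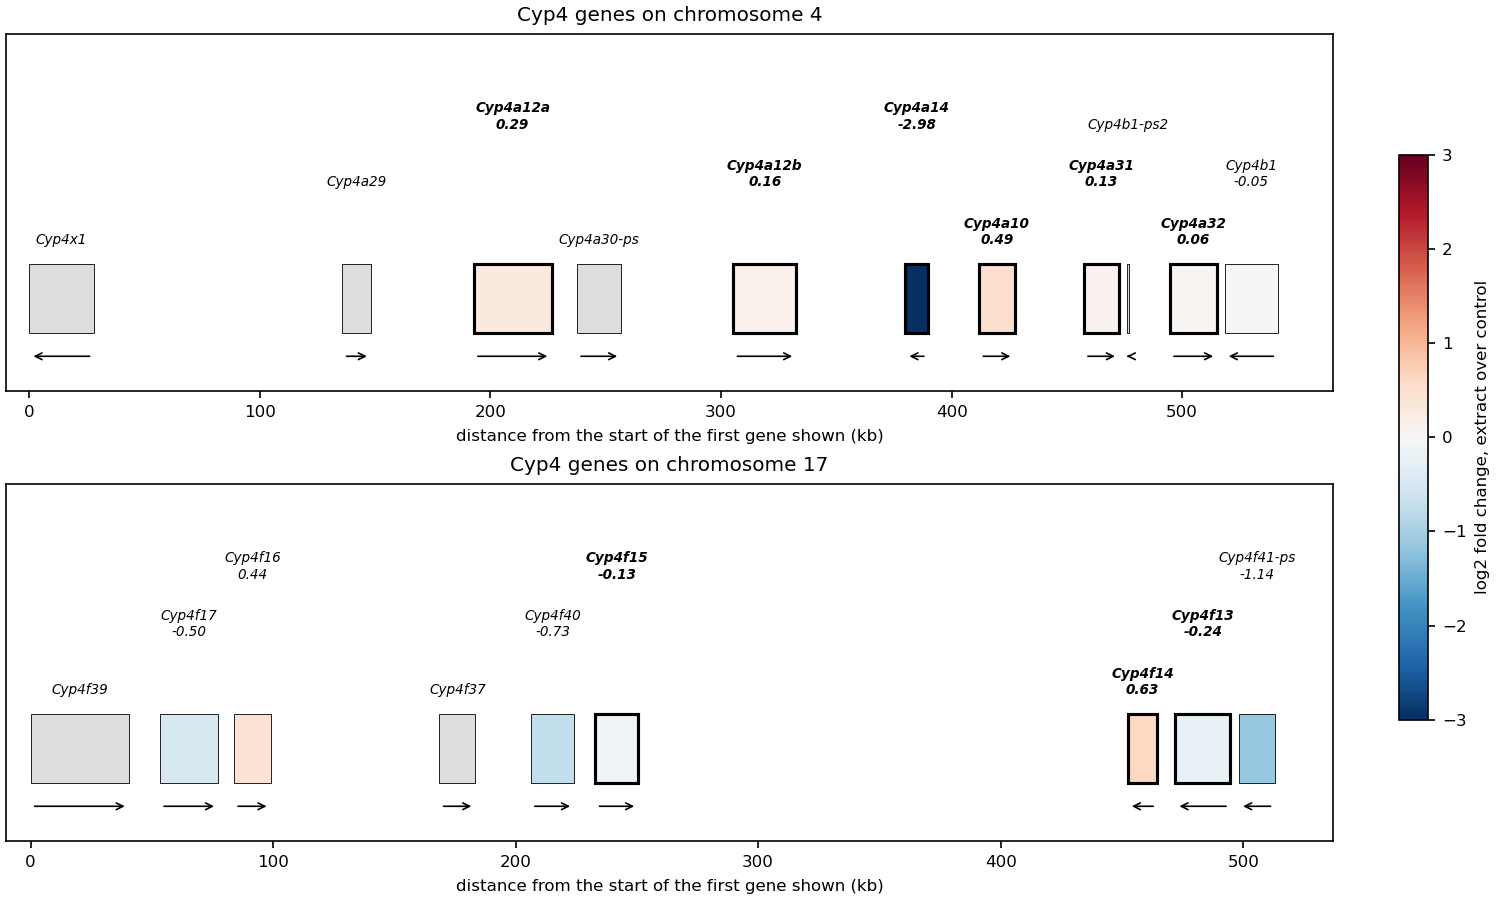
Map of the Cyp4 genes on chromosome 4 (upper) and chromosome 17 (lower), with distance in kb from the first gene shown, arrows for strand, and colour and number for the log2 fold change, extract over control (grey, not tested). Bold names are the genes described here: Cyp4a14 at -2.98 lies between Cyp4a12b at 0.16 and Cyp4a10 at 0.49.

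Cyp4f14 (ENSMUSG00000024292, chromosome 17, 32905070 to 32917342, minus strand) encodes the mouse liver enzyme that omega-hydroxylates leukotrienes and the side chains of vitamin E. It had 75.1, 73.4 and 70.7 FPKM in extract libraries, against 57.2, 53.3 and 37.6 FPKM in control libraries. All extract libraries were above all control libraries, and control 3 was the lowest. The log2 fold change was 0.63 ± 0.13 (SE), and 0.47 without control 3. Cyp4f13, whose span is 7.35 kb from that of Cyp4f14 on the same strand (32924688 to 32947402), had 9.10, 8.93 and 8.78 FPKM in extract libraries, against 10.8, 11.1 and 11.2 FPKM in control libraries. Its groups did not overlap, with the extract libraries lower, and the log2 fold change was -0.24 ± 0.05 (SE).

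Cyp4f15 (chromosome 17, 32685627 to 32703352, plus strand), also of the leukotriene-hydroxylating subfamily, had 35.3, 35.9 and 35.3 FPKM in extract libraries, against 41.3, 41.1 and 38.8 FPKM in control libraries. The groups did not overlap, with extract lower, and the log2 fold change was -0.13 ± 0.04 (SE). Within the subfamily the ratio of Cyp4f14 to Cyp4f15 FPKM was 2.06 ± 0.0652 with the extract and 1.22 ± 0.220 in control (SD, n = 3 each). The ratio was higher in every extract library than in any control library, and it was lowest in control 3, at 0.968.

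Cyp4v3, the mouse counterpart of human CYP4V2, whose loss causes the crystalline retinal disease named after Bietti, had 58.5, 59.9 and 56.0 FPKM in extract libraries, against 64.5, 63.2 and 54.1 FPKM in control libraries. The groups overlapped, because control 3 was the lowest library of all. The log2 fold change was 0.00 ± 0.06 (SE), and its sign depended on the setting, with -0.07 without control 3.

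**Figure D4:**
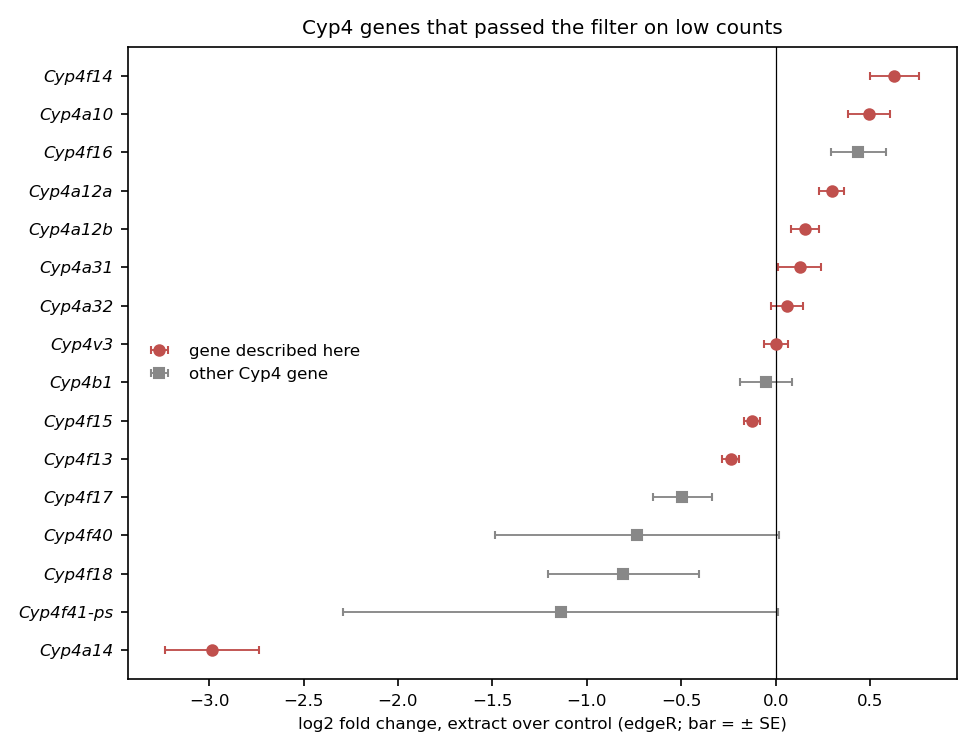
Log2 fold change, extract over control, from edgeR (horizontal axis, bars ± SE) for the Cyp4 genes that passed the filter on low counts. Of the genes described here (red), Cyp4a14 stands at -2.98 and the other members between -0.24 and 0.63, and other Cyp4 genes are grey.

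The summed FPKM of the members differed far less than Cyp4a14 alone. It was 472, 470 and 470 in extract libraries, against 448, 428 and 426 in control libraries, or 0.138 to 0.141% of all counts with the extract and 0.127 to 0.134% in control. Cyp4a14 made up 0.491 ± 0.0481% of the summed Cyp4a FPKM with the extract and 4.36 ± 1.42% in control (SD, n = 3 each). The median log2 fold change was 0.09 over the 10 members and -0.02 over all genes tested. The SD was larger in control than with the extract for 9 of the 10 genes, Cyp4a31 being the exception. Control 3 was the highest control for 5 of them and the lowest for the other 5.

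By level per length, Cyp4a12b was the highest member in both groups, at 85.7 ± 3.45 FPKM with the extract and 80.4 ± 8.37 FPKM in control. With the extract there followed Cyp4f14, then Cyp4a10, Cyp4a32 and Cyp4a12a with overlapping ranges, then Cyp4v3, Cyp4f15, Cyp4f13, Cyp4a31 and Cyp4a14, each neighbour separate. In control the order was Cyp4a12b, Cyp4a32, Cyp4v3, Cyp4a12a, Cyp4a10, Cyp4f14 and Cyp4f15, and each neighbour in this run overlapped with the next. Cyp4a14 and Cyp4f13 came next and overlapped, and Cyp4a31 was the lowest in control. Cyp4a14 was thus the lowest member with the extract and the eighth of the 10 in control.

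Another 13 genes of the table have names that start with the same letters, and 7 of them passed the filter on low counts. Cyp4f17, a neighbour in the chromosome 17 cluster, had 4.80 ± 0.488 FPKM with the extract and 7.04 ± 1.61 FPKM in control (SD, n = 3 each) and was called lower (log2 fold change -0.50 ± 0.16, edgeR adjusted p = 0.0491). The call was lost without control 3, where the log2 fold change was -0.29. Cyp4f16 had 1.99 ± 0.357 FPKM with the extract and 1.53 ± 0.110 FPKM in control and was not called (log2 fold change 0.44 ± 0.15, edgeR adjusted p = 0.0614). It was called higher by DESeq2 and by edgeR without extract 3, and under no other alternative run. Cyp4b1, next to the Cyp4a cluster, had 4.66 ± 0.343 FPKM with the extract and 5.03 ± 0.874 FPKM in control and was not called (edgeR adjusted p = 0.816).

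Cyp4f18, the leukotriene hydroxylase of neutrophils, had 0.296, 0.153 and 0.144 FPKM in extract libraries, against 0.381, 0.431 and 0.313 FPKM in control libraries. Its log2 fold change of -0.81 ± 0.40 was not called (edgeR adjusted p = 0.175). Of 10 neutrophil markers, 9 fell, where 12.8% of all genes tested did. The 10 summed to 173 to 181 FPKM in extract libraries, against 382 to 458 FPKM in control libraries, with none of them at 0 in every library. The sum was highest in control 3, but the called markers with the smallest p, Ngp, S100a9, Mpo and Camp, were each lowest there among controls. S100a9 had 49.7, 52.1 and 25.5 FPKM in controls 1 to 3, so the sum does not follow every marker. Without control 3, 7 of the 10 fell, where 24.9% of all genes were called, 13.5% higher and 11.4% lower. Whether this bears on Cyp4f18 was not tested, and in bulk tissue fewer cells of a type and less RNA per cell cannot be told apart. Cyp4f40 and the pseudogene Cyp4f41-ps were under 0.2 FPKM in mean in both groups and not called. Cyp46a1 shares only the first letters of the name and belongs to another P450 family, the cholesterol hydroxylases. It fell to 4.31 ± 0.940 FPKM with the extract, against 16.5 ± 0.426 FPKM in control (log2 fold change -1.87 ± 0.14, edgeR adjusted p = 7.34e-05).

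The genes that supply electrons to P450 enzymes and carry omega-hydroxy acids onward were mostly higher with the extract or not called. All gene lists, the marker lists included, were chosen with earlier results of these data known. Their counts, medians and adjusted p-values are therefore a description, with nothing inferred from them. Of 7 electron supply genes tested, 4 rose and 1 fell, with a median log2 fold change of 0.23 against -0.02 for all genes. Of all genes tested, 14.2% rose and 12.8% fell, the shares to set beside this and every other list. Por, the P450 reductase, rose to 117 ± 2.85 FPKM with the extract, against 85.9 ± 3.81 FPKM in control (log2 fold change 0.51 ± 0.04, edgeR adjusted p = 0.000134). Cyb5b, a membrane cytochrome b5, and Pgrmc1, a heme protein that binds P450 enzymes, rose as well, with log2 fold changes of 0.68 and 0.38, and the reductase Cyb5r1 fell by 0.52 on the same scale. Of 10 alcohol and aldehyde dehydrogenases, 5 rose and the others were not called, with a median of 0.22. Among them Adh4, which oxidises omega-hydroxy fatty acids, rose by a log2 value of 0.80 ± 0.07 (SE, edgeR adjusted p = 0.000180), and Adh1 by 0.65 ± 0.05 (SE).

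Of 23 genes for peroxisomal import and oxidation of such acids, 12 rose and 4 fell, with a median of 0.27. Of all genes tested, 14.2% rose and 12.8% fell. The 4 that fell were Scp2, Ech1, Eci2 and Nudt19, with log2 fold changes of -0.18, -0.48, -0.36 and -0.36. Acaa1b, a peroxisomal thiolase, rose to 110 ± 5.13 FPKM with the extract, against 81.5 ± 2.25 FPKM in control (log2 fold change 0.50 ± 0.04, edgeR adjusted p = 0.000180). Abcd3, the transporter for dicarboxylic and branched acids, rose by 0.65 ± 0.05 in log2 terms, and Decr2, a peroxisomal reductase, by 0.59 ± 0.05 (SE). Cyp4a14 was thus lower in the same livers in which 12 of these 23 genes were higher and 4 were lower.

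By edgeR calls, PPARalpha targets outside the Cyp4 family were split between genes that rose and genes that fell. Of 36 tested, 11 rose, 11 fell and 14 were not called, with a median log2 fold change of -0.01, and without control 3 there were 11 and 9. Of all genes tested, 14.2% rose and 12.8% fell. The FPKM ranges did not overlap for 12 targets higher and 16 lower, and for 17.7% and 26.9% of all genes tested. The summed list was lower in every extract library (3537 to 3675 FPKM) than in any control library (4425 to 4537 FPKM). Abundant genes weigh most in that sum. The lipid droplet proteins Plin4 and Plin5 had log2 fold changes of -3.56 ± 0.06 and -1.68 ± 0.06, and Angptl4, an inhibitor of lipoprotein lipase, fell by a log2 value of 1.42 ± 0.05 (SE). This list shares 7 genes with the peroxisomal list, Acaa1b among them, so the lists are not independent. Ppara itself rose to 24.1 ± 1.21 FPKM with the extract, against 11.5 ± 1.75 FPKM in control (log2 fold change 1.12 ± 0.10, edgeR adjusted p = 0.000207). On the same scale its partner Rxra rose by 0.34 ± 0.04 (SE), and the coactivator Ppargc1a fell by 0.89 ± 0.09 (SE). Of the 20 nuclear receptors and coregulators, 8 rose and 3 fell, with a median of 0.12.

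**Figure D5:**
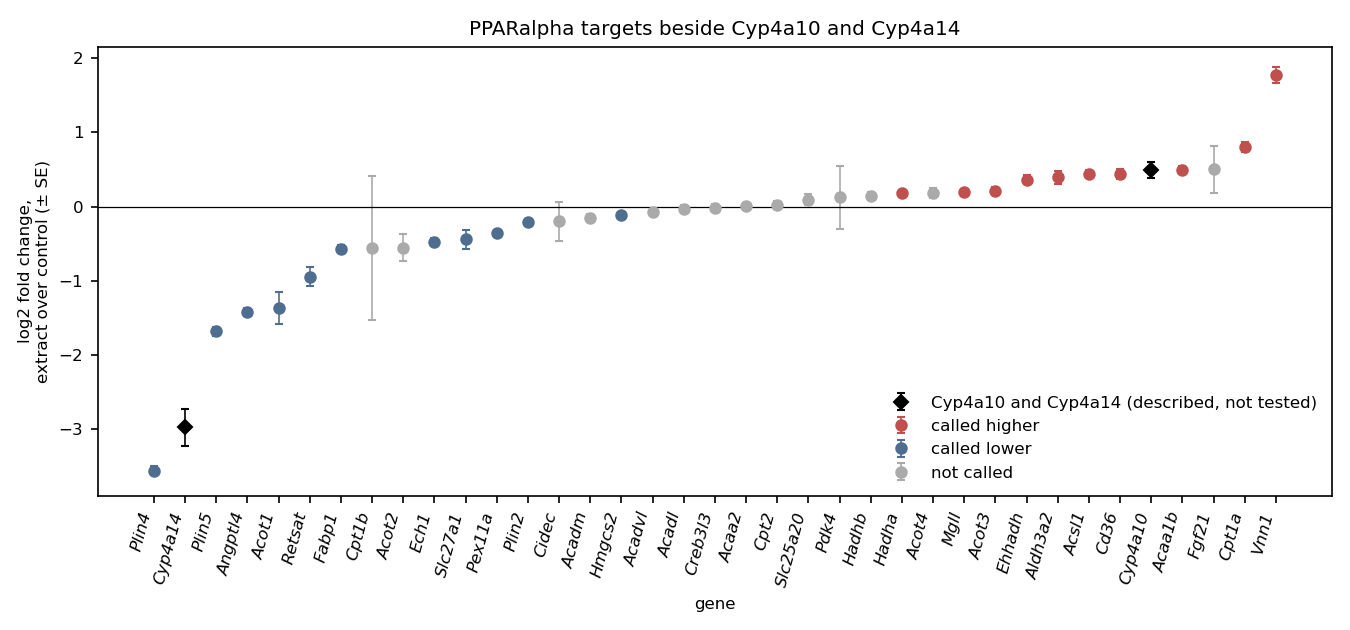
Log2 fold change, extract over control (vertical axis, bars ± SE), of the PPARalpha targets that passed the filter on low counts and are reported here, in order of their value, coloured by the edgeR call, with Cyp4a10 and Cyp4a14 as black diamonds. Cyp4a14 at -2.98 lies next to Plin4 at -3.56, and Cyp4a10 at 0.49 lies next to Acaa1b at 0.50.

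Growth hormone acts through STAT5 to set the sex pattern of liver genes, Cyp4a12a and Cyp4a12b among them. Of 10 genes of this pathway 6 rose and 1 fell, with a median log2 fold change of 0.26. The shares over all genes tested, to set beside the counts here, were 14.2% higher and 12.8% lower. In log2 terms the feedback inhibitor Cish rose by 2.20 ± 0.08 and Socs2 by 1.35 ± 0.10, and the repressor Bcl6 fell by 1.45 ± 0.09 (SE). Of 19 genes known as higher in male mouse liver, 9 rose and 6 fell, with a median of 0.12. The sum of that list went the other way, lower in every extract library (2259 to 2552 FPKM) than in any control library (2716 to 3059 FPKM). Abundant genes weigh most in such a sum. Gstp1 rose by 0.97 ± 0.05 on the log2 scale and Hsd3b5, a steroid dehydrogenase, fell by 2.20 ± 0.22 (SE). Of 26 genes known as higher in female liver, 12 rose and 5 fell, with a median of 0.31, Sult3a1, a sulfotransferase, rising in log2 terms by 2.32 ± 0.16 and A1bg, a plasma protein, falling with a log2 fold change of -2.42 ± 0.19 (SE). The female list summed to 1218 to 1295 FPKM in extract libraries, against 1177 to 1378 FPKM in control libraries, with overlap. Both sex-biased lists thus held genes that rose and genes that fell.

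Among other enzymes of eicosanoid metabolism, which handle the same arachidonic acid pool, 5 of 23 rose and 7 fell, with a median of -0.25, and without control 3 the counts were 6 and 5. In log2 terms the epoxide hydrolase Ephx1 rose by 1.20 ± 0.07 and the epoxygenase Cyp2c29 by 0.78 ± 0.08, and the prostaglandin synthase Ptgds fell by 1.28 ± 0.16 (SE). Of 7 genes of the vitamin K cycle and vitamin E handling, 4 rose and 1 fell. Beside the counts of both lists, 14.2% of all genes tested rose and 12.8% fell. Ttpa, the liver protein that retains vitamin E, rose by a log2 value of 0.40 ± 0.05, and Vkorc1, the reductase of the vitamin K cycle, fell by 0.30 ± 0.05 (SE).

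Kupffer cell markers, those of the liver macrophages, all moved down: 10 of 10 fell (9 without control 3), where 12.8% of all genes tested did (11.4% without control 3). They summed to 275 to 292 FPKM in extract libraries, against 457 to 480 FPKM in control libraries. Markers of kidney tubule, a tissue that also makes Cyp4a enzymes, summed to 32.5 to 36.3 FPKM in extract libraries, against 20.9 to 32.3 FPKM in control libraries. Nearly all of that was Kap, at 31.6 ± 1.89 FPKM with the extract and 22.9 ± 5.52 FPKM in control. Kap and Lrp2 rose and the other 6 were not called, where 14.2% of all genes tested rose. The call of Kap was lost under 11 of the alternatives. The defining tubule gene Umod had 1.24 FPKM with the extract and 1.12 FPKM in control. Pancreas and muscle markers summed to 222 to 293 FPKM in extract libraries, against 50.4 to 189 FPKM in control libraries, lowest in control 3. edgeR, DESeq2 and limma on FPKM each called 0 of these 10, with 0, 1 and 4 at an unadjusted p under 0.05. Without control 3, edgeR called 6 higher, where 13.5% of all genes tested were called higher. The part of these cell types in the Cyp4 values was not tested.

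The genes whose pattern over the 6 libraries was most like that of a member were found among 4881 genes with a mean of at least 5 FPKM, by the root mean square difference of centred log2(FPKM + 0.5) values. For Cyp4a14 they were H2-Ea, a class II histocompatibility gene (difference 0.20), the gene model Gm5526 (0.23) and A1bg (0.29). H2-Ea had 2.74, 3.35 and 2.65 FPKM in extract libraries, against 19.6, 22.0 and 35.1 FPKM in control libraries, and like Cyp4a14 it was highest in control 3. For Cyp4f14 they were Acss2, an acetyl-CoA synthetase (0.05), Selenbp2 (0.06) and Tm7sf2, a sterol reductase (0.07). For Cyp4a12a they were Ankrd46, Lclat1 and Agrn, each at 0.03, and for Cyp4v3 Eefsec, Cyp3a41a and Pla1a, at 0.02 to 0.03. With 6 libraries in 2 groups, many genes follow such patterns, and no function is read from the likeness.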

How the data were processed

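Liver messenger RNA was sequenced in 3 extract and 3 control libraries. Per the submitters' processing notes, cutadapt 1.9, HISAT2 2.0.4, StringTie 1.3.4d and edgeR were used, with no role given, and neither a genome build nor the use of strand is named there. The deposited table holds estimated counts per gene, which are whole numbers and were not rounded further, and FPKM, scaled by the authors for gene length and depth, per the file headers. Low estimated counts pile up at 4 (6292 entries, against 4117 at 3), so a deposited count need not be 1 fragment. Another 6 columns match no sample and were not used. Libraries were matched to groups by the code and number shared by column and title.

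Counts were fitted with edgeR 4.0.16 in R 4.3.3: filterByExpr defaults kept 18071 genes, TMM scaling, quasi-likelihood test, two-sided, Benjamini-Hochberg threshold 0.05. The SE came from the fold change and F statistic. Alternatives were DESeq2 1.42.0, limma 3.58.1 on log2(FPKM + 0.5) and other pseudocounts and filters, counts divided by 4, a replicate block and each library left out. The fits were also run on simulated counts, with fewer changed genes than were called here and limma on scaled counts instead of FPKM. That run does not show how well they perform on these data. Identity came from global pairwise alignment of GENCODE M21 coding sequences.

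The members and the 15 gene lists were chosen with earlier results of these data known. Named are all members, other tested genes whose name starts with Cyp4, up to 4 called genes per list with the smallest p and a mean of at least 1 FPKM, Ppara, Rxra and Por, and 3 like-patterned genes for each of 4 members. Marker genes that define a tissue are named beside their lists. A gene of the lists that the rule names is counted there but not reported here by name.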

Additional observations from a re-analysis of the deposited data

How the results depend on the processing

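The log2 fold changes of Cyp4a10, Cyp4a12a, Cyp4a12b, Cyp4a14, Cyp4a31, Cyp4a32, Cyp4f13, Cyp4f14 and Cyp4f15 kept their sign under every alternative run, and that of Cyp4v3, at 0.00, did not. For Cyp4a14 limma on log2(FPKM + 1) gave -2.36, and leaving out 1 library gave -3.14 to -2.63. Cyp4f13 was at -0.29 with limma at a pseudocount of 0.5 (also with no filter and with a mean of at least 5 FPKM), -0.30 at 0.1 and -0.27 at 1, against -0.24. Cyp4f15 was at -0.18 at pseudocounts of 0.5 and 1 and -0.19 at 0.1, against -0.13. Leaving out 1 library gave 0.42 to 0.65 for Cyp4a10, 0.24 to 0.35 for Cyp4a12a, 0.10 to 0.24 for Cyp4a12b, 0.00 to 0.22 for Cyp4a31, 0.00 to 0.16 for Cyp4a32, 0.47 to 0.75 for Cyp4f14, -0.07 to 0.05 for Cyp4v3, 0.16 to 0.29 for the Cyp4a12 pair and 0.22 to 0.41 for Cyp4a10 with Cyp4a31 and Cyp4a32. Over all genes, 2561 were higher and 2309 lower (52.6% higher). limma on log2(FPKM + 0.5) gave 1818 and 2706 (40.2% higher), 1485 higher with no filter, and 1089 and 1371 with a mean of at least 5 FPKM. Leaving out 1 library gave 1776 to 2553 higher and 1442 to 2153 lower, the low counts being 1442 without control 2, 1461 without extract 2 and 1480 without extract 1. Of the PPARalpha targets, 7 were higher in limma with no filter, against 11, and 8 to 11 higher and 9 to 12 lower with 1 library left out. Cyp4b1 (-0.05) changed sign to 0.10 without control 3 and 0.02 without extract 2 (range -0.17 to 0.10), and Cyp4f40 (-0.73) changed sign to 0.045 without control 3 (range -1.29 to 0.045). The calls of Kap and Cyp4f17 were lost under 11 and 8 alternatives. The cause of these shifts was not tested.

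Whether same-numbered libraries were paired is not stated in the labels. Their deviations from the group means correlated at -0.12, -0.03 and -0.09 over all genes tested, which cannot settle it with 3 libraries per group. With the number as a replicate block, 2044 genes were higher and 1702 lower. Depth limits Cyp4f18, Cyp4f40 and Cyp4f41-ps, all under 0.5 FPKM, and near-identical copies limit the split within the Cyp4a genes.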
